A study of Mus musculus with 34 samples.

Results

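*Malat1*, *Neat1*, *Meg3*, *Rian*, *Mirg*, *Miat*, *Snhg11*, *Snhg14*, *Peg13* and *Gas5* are long noncoding RNAs (lncRNAs), among them nuclear RNAs, RNAs made mainly in neurons and the broadly expressed snoRNA host *Gas5* (snoRNA, small nucleolar RNA). They were chosen by symbol, and all 10 were found among the 54532 genes of the bulk RNA-seq table and among the 22018 genes that were tested. The table covered dorsal hippocampi from 8 C57BL/6J males, 2 to 3 months old and housed individually, with 1 library per mouse. The homecage group (n = 4) was not trained, and the SOR group (n = 4) was euthanized 1 h after training in spatial object recognition, a hippocampus-dependent learning task. No mouse carried an engineered allele or received a drug according to the sources used here. The comparison asks whether the steady level of each lncRNA differed at the time when the first transcriptional response to learning is measured.

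In the cell nucleus, *Malat1* collects in nuclear speckles, which store splicing factors, and *Neat1* is the scaffold of paraspeckles, ribonucleoprotein bodies that retain RNA and RNA-binding proteins. *Meg3*, *Rian* and *Mirg* are transcribed from the maternal chromosome of the imprinted *Dlk1-Dio3* domain and carry microRNAs and snoRNAs within their transcripts. *Snhg14* and *Peg13* come from the paternal chromosome at other imprinted loci, and the distal part of *Snhg14* silences *Ube3a* in neurons. *Miat* and *Snhg11* are enriched in neurons, and *Gas5* is a snoRNA host whose spliced RNA is removed by nonsense-mediated decay. In bulk tissue, fewer cells of a type and less RNA per cell cannot be told apart.

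*Mirg* is shown first by its microRNAs, because it was the lncRNA of this set with the largest difference between the groups. RefSeq (GRCm38.p6) places 26 mature microRNAs with 25 different seeds inside the GENCODE span of *Mirg*, 6 inside *Rian* and 3 inside *Meg3*. The lines below give 7 of the *Mirg* microRNAs, all on the plus strand of chromosome 12 between 109733781 and 109743784, with the seed (bases 2 to 8) in capitals. miR-453 and miR-496a-5p are shown because they share a seed, and the others because they are among the best known products of this host. miR-134 is known as a regulator of dendritic spine size.
mmu-miR-382-5p: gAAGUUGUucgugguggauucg
mmu-miR-134-5p: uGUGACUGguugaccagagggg
mmu-miR-485-3p: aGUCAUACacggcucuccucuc
mmu-miR-453: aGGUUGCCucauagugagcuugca
mmu-miR-154-5p: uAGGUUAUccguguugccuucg
mmu-miR-496a-5p: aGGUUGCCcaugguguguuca
mmu-miR-410-3p: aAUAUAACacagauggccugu

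The promoters of *Meg3* and *Gas5* are shown because they hold the full cAMP response element TGACGTCA, which is the same on both strands and is known as the binding sequence of CREB. RefSeq gave 10 promoter windows (250 bases before to 50 after an annotated start) for 8 of the 10 lncRNAs, and 2 of these windows held the element. Among all 32851 windows, 1.79% held it. It was 1 of 4 motifs searched on both strands. The shorter element TGACG, which lies within the full one, was in 3 of the 10 windows (20.8% of all windows), and neither the AP-1 motif TGANTCA (7.81% of all) nor the EGR motif GCGNGGGCG (5.55% of all) was in any of the 10. Not all RefSeq starts match the GENCODE genes that were counted. The *Snhg14* window lies outside the GENCODE span of that gene, and the *Mirg* window lies within its span and not at its start. The *Gas5* window with the full element, at 161034916-161035215, also lies within the GENCODE span of that gene and not at its start (161034422). *Meg3* and *Gas5* each also have a window without the full element. The full element began 57 bases before a start of *Meg3* and 46 bases before a start of *Gas5*. The last 130 bases of each window follow, 5′ to 3′ on the plus strand of GRCm38.p6, with the element in capitals. The *Meg3* stretch is chr12:109540916-109541045 and the *Gas5* stretch is chr1:161035086-161035215.
Meg3: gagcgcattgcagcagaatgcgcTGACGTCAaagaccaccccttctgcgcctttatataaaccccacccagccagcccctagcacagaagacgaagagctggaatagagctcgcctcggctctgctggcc
Gas5: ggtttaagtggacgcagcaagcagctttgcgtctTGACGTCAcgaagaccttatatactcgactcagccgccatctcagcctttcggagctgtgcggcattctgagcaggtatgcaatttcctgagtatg

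Library totals ranged from 51406011 to 81525977 counts. The 10 lncRNAs took 1.416% to 1.605% of each library, of which *Malat1* alone made 1.088% to 1.23%. Immediate early genes, which neuronal activity induces within minutes, served as a check of the training label. *Fos*, *Arc*, *Nr4a1* and *Egr1* rose (4 of 5 genes on that list), with adjusted p between 0.000008 and 0.02115 in edgeR's quasi-likelihood test. The remaining gene, *Npas4*, a neuronal activity-induced transcription factor, was at 3.49 CPM in homecage and 2.48 CPM in SOR (log2 fold change -0.49, SE 0.23, adjusted p = 0.50).

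Levels differed widely among the lncRNAs. CPM is a count scaled to the size of its library (counts per 1000000) and not to transcript length, so that genes were compared per kilobase of annotated exon. On this scale *Malat1* stood at 1658 CPM per kb (rank 18 of the genes tested) and *Meg3* followed at 56.6. *Snhg14*, *Peg13*, *Gas5*, *Snhg11*, *Miat* and *Rian* lay between 47.6 and 21.8. *Mirg* at 3.48 and *Neat1* at 2.64 CPM per kb were the lowest. The exon length joined all annotated transcripts of a gene, which gave 20.77 kb for *Neat1* and 7.292 kb for *Mirg*. In CPM, *Malat1* ranked 7th among all genes tested, and *Mirg* was the lowest of the 10, below *Neat1* (22.57 and 58.31 CPM in homecage).

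None of the 10 lncRNAs passed an adjusted p of 0.05 after SOR training, against 0.309% of all genes tested (68 of 22018). Two-sided unadjusted p fell under 0.05 for *Mirg* and *Gas5*, that is 2 of 10, against 10.1% of all genes. The SOR and homecage values did not overlap for *Mirg* alone, against 6.94% of all genes. By estimate, 6 lncRNAs were higher and 4 lower in SOR, where 43.8% of all genes tested were higher. The median of the 10 was 0.01 on the log2 scale, while all genes tested had a median of -0.02. DESeq2, run as an alternative to edgeR, gave 1 call among the 10, *Mirg*, and called 442 genes in all, which is 2.68% of the 16464 genes to which it gave an adjusted p.

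**Figure D1:**
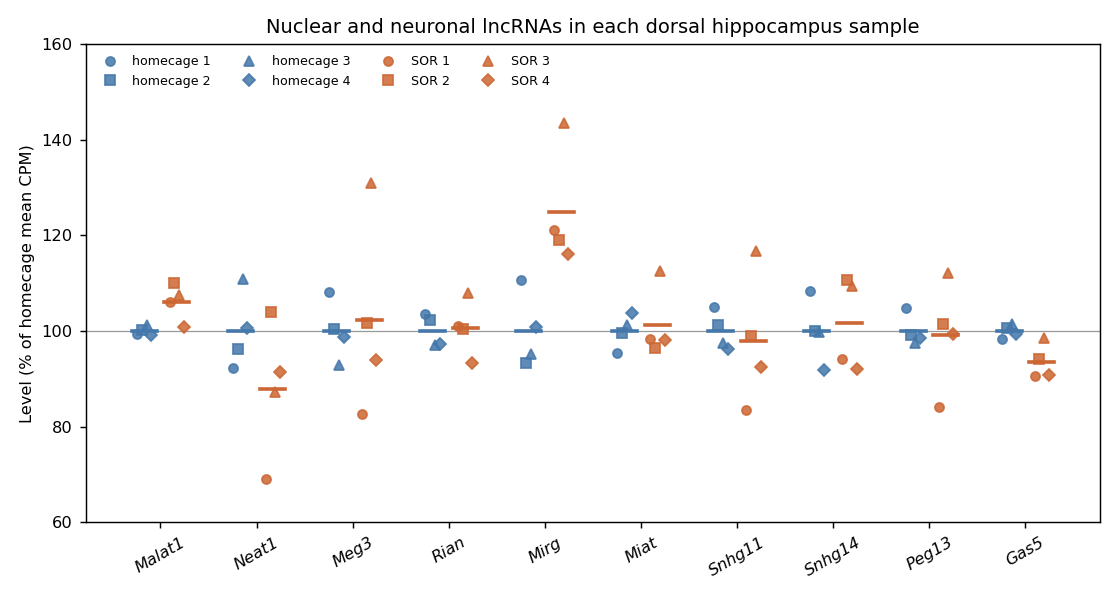
Level of each lncRNA in each of the 8 samples, as a percentage of that gene's homecage mean CPM; each point is 1 mouse (blue, homecage; orange, SOR; the marker shape gives the replicate number) and each horizontal bar is a group mean. *Mirg* is the gene whose 4 SOR points all lie above its 4 homecage points, and SOR 1 and SOR 3 mark the lower and upper ends for *Meg3*, *Snhg11* and *Peg13*.

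**Figure D2:**
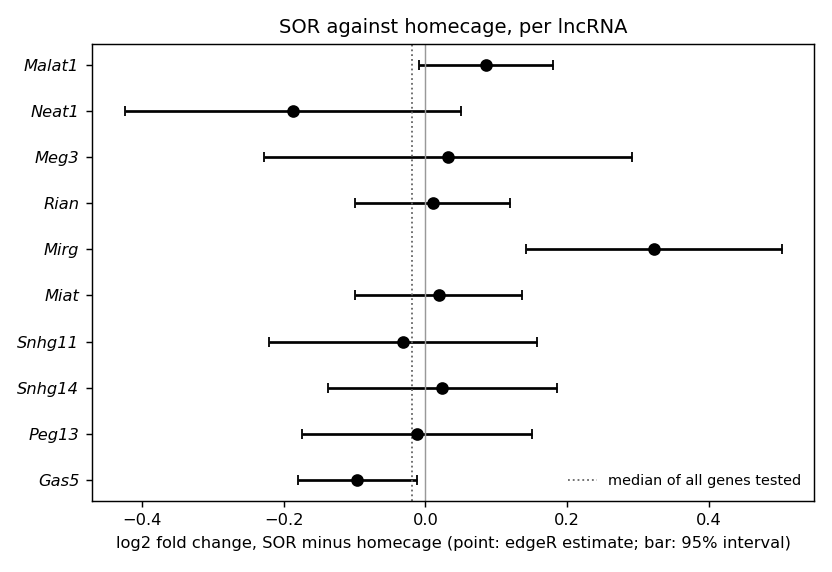
Log2 fold change of SOR against homecage for each lncRNA (points, edgeR estimate; bars, 95% interval), with the median of all genes tested as a dotted line. The intervals of *Mirg* (0.14 to 0.50) and *Gas5* (-0.18 to -0.01) leave out 0 before adjustment, and the widest interval is that of *Meg3*.

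*Malat1* (ENSMUSG00000092341) is a single exon on the minus strand of chromosome 19 at 5795690-5802672. Its level in the homecage samples was 11170, 11250, 11380 and 11140 CPM, and in the SOR samples 11920, 12360, 12070 and 11340 CPM. The first 3 SOR samples lay above all homecage samples, and SOR 4 lay among them. The means were 11240 ± 110 and 11920 ± 429 CPM (SD, n = 4 each), a log2 fold change of 0.09 (SE 0.04, adjusted p = 0.54 by edgeR) and an exact two-sided permutation p of 0.0571. The 95% interval of the fold was 0.994 to 1.13.

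*Neat1* (ENSMUSG00000092274) lies on the same strand at 5824708-5845478 of chromosome 19. Homecage samples held 53.8, 56.2, 64.6 and 58.7 CPM and SOR samples 40.2, 60.7, 50.9 and 53.4 CPM. SOR 1 was the lowest of the 8, while SOR 2 was above 3 of the 4 homecage samples. The log2 fold change was -0.19 (SE 0.11, adjusted p = 0.61, edgeR), and the 95% interval of the fold, 0.745 to 1.04, included 1. The estimate was -0.09 without SOR 1 and -0.03 without SOR 1 and SOR 3. Reads of the short and the long *Neat1* isoform, of which the long one builds paraspeckles, were not separated in the gene counts.

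The mRNAs of proteins from the bodies in which these RNAs reside were measured in the same libraries. None of 12 mRNAs of paraspeckle proteins and none of 12 of speckle and splicing proteins passed the adjusted p in edgeR, with 2 and 0 genes at an unadjusted p under 0.05. Their median log2 fold changes were -0.02 for both lists. The highest estimate on the paraspeckle list was that of *Sfpq*, an RNA-binding protein needed for paraspeckle assembly, at 0.17 (SE 0.07, adjusted p = 0.44), and the lowest was *Ewsr1* at -0.10 (SE 0.10, adjusted p = 0.78). On the speckle and splicing list the estimates ran from 0.09 for *Sf1*, a branch point binding protein (SE 0.12, adjusted p = 0.86), to -0.18 for *Celf3*, a neuronal splicing regulator (SE 0.09, adjusted p = 0.54).

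*Meg3*, *Rian* and *Mirg* follow each other on the plus strand of chromosome 12, at 109541001-109571726, 109603940-109661716 and 109729764-109749460. Their levels fell from the first to the last, and their differences between the groups did not follow the same order.

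*Meg3* (ENSMUSG00000021268) is a lncRNA known to bind the Polycomb complex PRC2. It was at 1094, 1016, 940.5 and 998.6 CPM in homecage and at 836.9, 1030, 1325 and 949.9 CPM in SOR. The SOR samples spanned the homecage range on both sides, with SOR 1 the lowest and SOR 3 the highest of the 8. The log2 fold change was 0.03 (SE 0.12, adjusted p = 0.96, edgeR). Its 95% interval of the fold ran from 0.854 to 1.22.

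*Rian* (ENSMUSG00000097451), the host of the C/D box snoRNA cluster of the domain, varied less. Homecage samples held 409.4, 404.5, 383.9 and 384.6 CPM and SOR samples 400, 397.1, 427.3 and 369.1 CPM, and the groups overlapped almost completely. Its log2 fold change was 0.01 (SE 0.05, adjusted p = 0.97, edgeR), with a 95% interval of the fold of 0.933 to 1.09.

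*Mirg* (ENSMUSG00000097391), which hosts the microRNAs shown above, was at 24.98, 21.04, 21.5 and 22.74 CPM in homecage and at 27.34, 26.88, 32.37 and 26.2 CPM in SOR. The lowest SOR sample, at 26.2 CPM, still exceeded the highest homecage sample, at 24.98 CPM, and SOR 3 was the highest. The means were 22.57 ± 1.76 and 28.2 ± 2.82 CPM (SD, n = 4 each). This gave a fold of 1.25 (95% interval 1.10 to 1.42), a log2 fold change of 0.32 (SE 0.08), an unadjusted p of 0.00246 and an adjusted p of 0.18 by edgeR. The exact permutation p was 0.0286, the smallest that 4 samples against 4 can give. *Mirg* passed the adjusted threshold under 4 of 14 alternatives (adjusted p from 0.00581 to 0.0324). These were DESeq2 and the fits with 1, 2 or 3 RUVs factors of unwanted variation. The RUVs fits used edgeR's likelihood ratio test in place of the quasi-likelihood test, and called 1.38%, 2.26% and 2.28% of all genes. *Mirg* passed in none of the 8 quasi-likelihood fits that left out a sample (adjusted p from 0.16 to 0.43). Without SOR 1 and SOR 3 the estimate was 0.23 on the log2 scale (adjusted p = 0.51).

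The genes tested inside or within 100 kb of a lncRNA numbered from 1 for *Peg13* to 14 for *Neat1*. Some of them lay near more than 1 lncRNA. Among these genes 1 passed the adjusted p, against 0.309% of all genes tested, and it lies inside *Rian*. *Gm26945* (ENSMUSG00000098061) is a lncRNA model of 1 exon at 109640341-109642351, on the strand of *Rian*, and none of its 2011 bases falls in a *Rian* exon. It held 11.43, 9.854, 9.458 and 9.84 CPM in homecage and 17.45, 16.12, 18.41 and 15.4 CPM in SOR, so that the lowest SOR sample exceeded the highest homecage sample. *Gm26945* rose 1.66-fold (95% interval 1.46 to 1.90; log2 fold change 0.73, SE 0.09, adjusted p = 0.00539, edgeR). It passed in all 14 alternatives and in the 8 fits without 1 sample, and had an adjusted p of 0.0689 without SOR 1 and SOR 3. Reads of unspliced *Rian* RNA and of *Gm26945* cannot be told apart in these counts. For every 100 counts of *Rian* there were 2.56 ± 0.16 counts of *Gm26945* in homecage and 4.23 ± 0.14 in SOR (SD, n = 4 each).

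**Figure D3:**
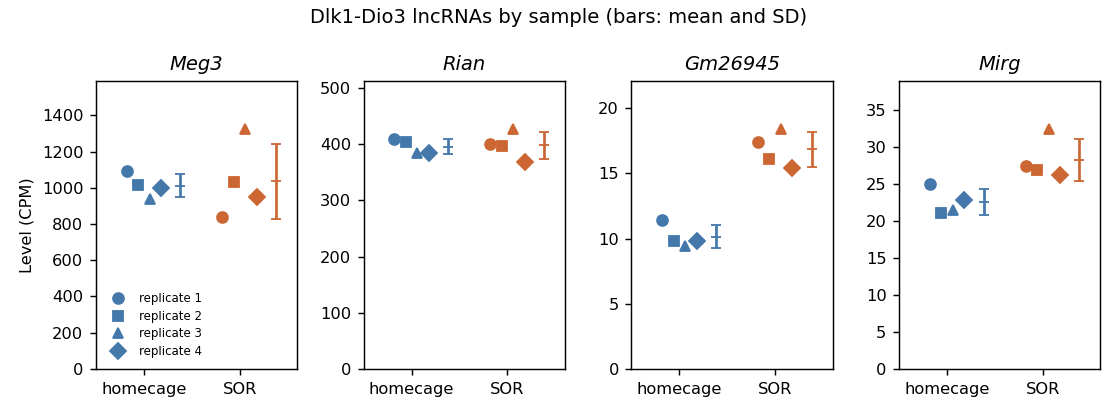
CPM of *Meg3*, *Rian*, *Gm26945* and *Mirg* in each of the 8 samples (points; the shape gives the replicate number), with the group mean and SD beside them and an axis from 0 in each panel. The groups overlap for *Meg3* and *Rian* and are apart for *Gm26945* and *Mirg*.

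All 7 genes tested from *Meg3* to *Mirg* had an estimate above 0, where 43.8% of all genes tested did. From *Dlk1* to *Dio3* it was 8 of 10 tested genes. The 2 most abundant, *Meg3* and *Rian*, were close to 0. Both fell below 0 in fits that left out 1 sample (lowest -0.1086 and -0.025). *Rtl1*, a retrotransposon-derived gene on the opposite strand, had a log2 fold change of 0.25 (SE 0.09, adjusted p = 0.36), and its SOR samples lay above its homecage samples. *Gm37899* and *B830012L14Rik*, noncoding models between *Rian* and *Mirg*, were at 0.26 (SE 0.10, adjusted p = 0.40) and 0.24 (SE 0.21, adjusted p = 0.76). At the ends of the domain, *Dlk1* was at 0.88 CPM in homecage and 0.291 CPM in SOR (log2 fold change -1.55, SE 0.50, adjusted p = 0.32), and *Dio3*, an enzyme that inactivates thyroid hormone, was at -0.47 (SE 0.34, adjusted p = 0.69). Both levels were low, with *Dio3* at 0.31 CPM in homecage and 0.22 CPM in SOR, and the groups overlapped for both. Homecage samples of *Dlk1* held 1.671, 0.4492, 1.035 and 0.364 CPM, and SOR 3 held 0.4606 CPM. Of 5 protein-coding genes tested in or beside the domain (*Dlk1*, *Rtl1* and *Dio3*, with *Begain* and *Ppp2r5c* outside the span from *Dlk1* to *Dio3*), none passed in edgeR, 2 had an unadjusted p under 0.05, and their median was -0.04. Between *Dlk1* and *Dio3* the table lists 67 microRNA and 23 snoRNA genes, and none of the 14 microRNA genes in *Mirg*, or the 4 microRNA and 13 snoRNA genes in *Rian*, had a count in any library. For these 2 hosts the table thus measures the host RNA and not its small products.

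**Figure D4:**
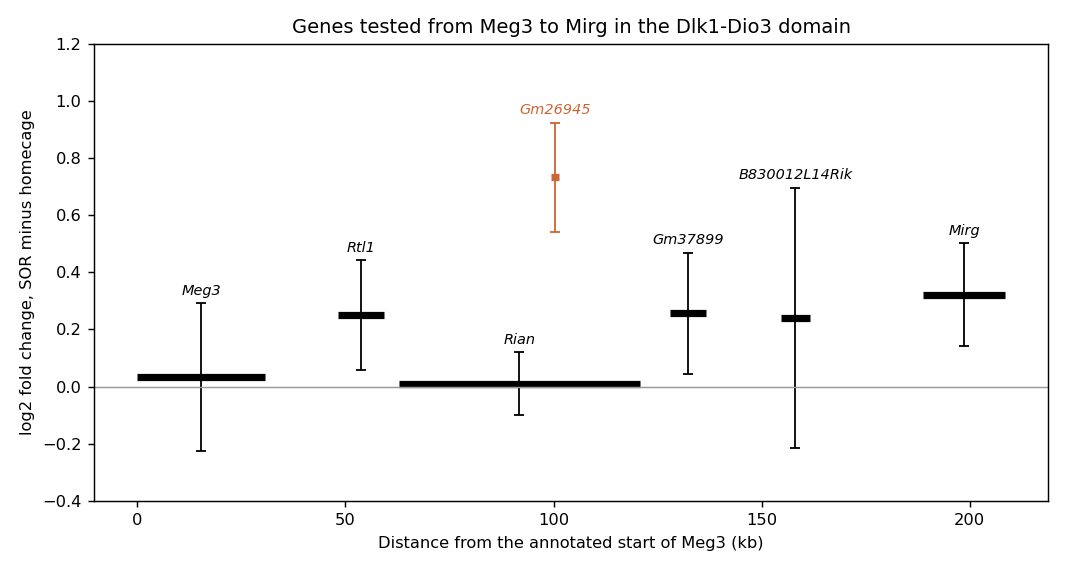
Log2 fold change of SOR against homecage for the 7 genes tested from *Meg3* to *Mirg*, by distance from the annotated start of *Meg3* in kb; the thick bar spans the gene, the thin bar is the 95% interval, and orange marks an adjusted p under 0.05. All 7 estimates lie above 0, those of *Meg3* and *Rian* close to it, and *Gm26945* is the one in orange.

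*Snhg14* (ENSMUSG00000100826) spans 59307924-59975759 on the minus strand of chromosome 7 and hosts 208 annotated snoRNA genes, none of which had a count. Homecage samples held 1333, 1232, 1229 and 1130 CPM and SOR samples 1160, 1363, 1347 and 1134 CPM, with SOR 2 and SOR 3 above and SOR 1 and SOR 4 below most homecage samples. The log2 fold change was 0.02 (SE 0.07, adjusted p = 0.95, edgeR). *Ube3a*, the ubiquitin ligase gene that *Snhg14* overlaps in antisense, was at -0.02 (SE 0.07, adjusted p = 0.95). None of the 8 tested genes of the *Snrpn-Ube3a* domain passed in edgeR (1 at an unadjusted p under 0.05, median -0.05). Their estimates ran from 0.25 for *Atp10a*, a phospholipid flippase (SE 0.11, adjusted p = 0.48), to -0.58 for *Magel2*, a ubiquitin ligase regulator (SE 0.46, adjusted p = 0.72).

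*Peg13* (ENSMUSG00000106847) is a single-exon RNA inside *Trappc9*, at 72805600-72810324 on the minus strand of chromosome 15. It was at 178.8, 169.5, 166.6 and 168.2 CPM in homecage and at 143.5, 173.1, 191.5 and 169.7 CPM in SOR. As for *Meg3*, SOR 1 was the lowest and SOR 3 the highest of the 8. The log2 fold change was -0.01 (SE 0.07, adjusted p = 0.98, edgeR), and it turned to 0.01 with TMM, RLE or DESeq2 scaling. *Trappc9*, a trafficking gene, was at -0.02 (SE 0.05) and *Kcnk9*, an imprinted potassium channel gene, at -0.03 (SE 0.09). None of the 5 genes of the *Peg13-Kcnk9* list passed in edgeR (1 at an unadjusted p under 0.05, median -0.03). The highest was *Ago2*, which loads microRNAs, at 0.23 (SE 0.08, adjusted p = 0.38), and the lowest *Chrac1*, a chromatin accessibility subunit, at -0.18 (SE 0.09, adjusted p = 0.52).

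*Miat* (ENSMUSG00000097767; chromosome 5, 112213228-112229395, minus strand) is known to bind splicing factors, and *Celf3*, given above, is among these partners. It was at 192.6, 201.2, 204.4 and 209.8 CPM in homecage and at 198.5, 194.7, 227.3 and 198.1 CPM in SOR. SOR 3 stood above the other 7 samples, which lay close together. The log2 fold change was 0.02 (SE 0.05, adjusted p = 0.94, edgeR).

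*Snhg11* (ENSMUSG00000044349; chromosome 2, 158375638-158386145, plus strand) is annotated as protein-coding in GENCODE M21 although it is known as a snoRNA host. Homecage samples held 279.3, 269.2, 258.9 and 255.9 CPM and SOR samples 222.1, 262.8, 310 and 245.6 CPM. SOR 1 was again the lowest and SOR 3 the highest of the 8. The log2 fold change was -0.03 (SE 0.09, adjusted p = 0.94, edgeR), with a 95% interval of the fold of 0.858 to 1.12.

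*Gas5* (ENSMUSG00000053332; chromosome 1, 161034422-161038539, plus strand) hosts 10 annotated snoRNA genes. It was at 123.3, 126.2, 127.2 and 124.6 CPM in homecage and at 113.5, 118.1, 123.5 and 113.9 CPM in SOR. SOR 1, SOR 2 and SOR 4 were below all homecage samples, and SOR 3 was just above the lowest of them. The means were 125.3 ± 1.7 and 117.3 ± 4.6 CPM (SD, n = 4 each), a log2 fold change of -0.10 (SE 0.04), an unadjusted p of 0.029 and an adjusted p of 0.44 by edgeR. The exact permutation p was 0.0571.

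The other snoRNA hosts and the decay factors that act on their RNAs were tested as lists. Of 17 other snoRNA hosts, 13 were tested and none passed in edgeR (1 at an unadjusted p under 0.05). By estimate 9 were lower and 4 higher, with a median of -0.12. *Snhg10* was the highest at 0.30 (SE 0.15, adjusted p = 0.55) and *Snhg3* the lowest at -0.25 (SE 0.19, adjusted p = 0.73). Of 10 nonsense-mediated decay factors none passed in edgeR (4 at an unadjusted p under 0.05, against 10.1% of all genes tested). For 7 factors the estimate was above 0 (43.8% of all genes tested), and the median was 0.08. The lowest was *Upf3a* at -0.14 (SE 0.05, adjusted p = 0.44). The summed level of the 10 factors was 606.6 to 618.6 CPM in homecage and 645.2 to 689 CPM in SOR, and these ranges did not overlap. The sum was not tested. Taken singly, the groups did not overlap for 2 of the 10 factors, against 6.94% of all genes tested.

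Of 18 other brain lncRNAs, 15 were tested and none passed in edgeR (1 at an unadjusted p under 0.05). Their median was -0.03. *Kcnq1ot1*, an imprinting RNA, was the highest at 0.11 (SE 0.10, adjusted p = 0.76) and *Nespas*, an antisense RNA of the *Gnas* locus, the lowest at -0.85 (SE 0.46, adjusted p = 0.58). The level of *Nespas* was low, at 0.43 CPM in homecage and 0.24 CPM in SOR, and its groups overlapped. The gene of that list with an unadjusted p under 0.05 was *Sox2ot* at -0.26 (SE 0.08, adjusted p = 0.27).

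The spread between mice was larger in SOR than in homecage for all 10 lncRNAs. The coefficient of variation (CV, the SD as a percentage of the mean) was 20.1% in SOR against 6.27% in homecage for *Meg3*, 14.3% against 4.0% for *Snhg11* and 11.7% against 3.21% for *Peg13*. The median over the 10 was 9.84% in SOR and 3.78% in homecage. Over the 6433 genes at or above *Mirg* in CPM, the lowest of the set on that scale, the medians were 5.79% and 4.15%. Of these genes, 69% had the larger CV in SOR. Without SOR 1, the count of lncRNAs with the larger CV in SOR was 10, and 58.6% of the 6433 genes had it. The count was 8 without SOR 3 (64.7% of the 6433 genes) and 6 without both (51.6%). Without both, the SOR CV came from fewer mice than the homecage CV.

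SOR 1 was the lowest of the 8 samples for 5 of the 10 lncRNAs and SOR 3 the highest for 6. SOR 3 over SOR 1 gave a ratio of 1.58 for *Meg3*, 1.4 for *Snhg11* and 1.33 for *Peg13*, and of 1.01 for *Malat1*. SOR 1 also had the highest summed level of 6 choroid plexus markers, at 3988 CPM. Across the other samples that sum ranged from 25.04 to 1091 CPM in homecage and started at 41.28 CPM in SOR. Of these 6 markers none was at 0, all had higher means in SOR and none passed in edgeR (0 also at an unadjusted p under 0.05). The summed level of 9 neuronal markers was 4521 CPM in SOR 1, the second lowest of the 8 samples, against 4426 to 4990 CPM in homecage. SOR 1 was the lowest of the 8 for 6 thalamus markers, at 112 CPM against 134.3 to 171.9 CPM in homecage. All 10 oligodendrocyte markers had estimates below 0 (median -0.19, summed level 5820 to 6372 CPM in homecage and 4775 to 6275 CPM in SOR), and none passed in edgeR (4 at an unadjusted p under 0.05). All 5 red blood cell genes had estimates above 0 (median 0.37, summed level 98.6 to 126.7 CPM in homecage and 115.1 to 184.4 CPM in SOR), again with none past the adjusted p (2 unadjusted). SOR 3 had the lowest summed level of the oligodendrocyte markers among the 8 samples, at 4775 CPM. It was also the lowest for markers of oligodendrocyte precursors (200.2 CPM), microglia (283.2 CPM) and astrocytes (4284 CPM). SOR 1 was likewise below all homecage samples for astrocyte (4289 CPM), oligodendrocyte (5342 CPM) and oligodendrocyte precursor markers (209.1 CPM). For microglia markers SOR 1, at 304.2 CPM, lay within the homecage range. The sum of neuronal markers in SOR 3, 4877 CPM, lay within the homecage range. Whether tissue composition had a part in the levels of the lncRNAs was not tested.

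After the group means were removed, the lncRNAs varied together across the 8 samples in most pairs. Pearson's r of the log2 levels was above 0 in 43 of 45 pairs and above 0.7 in 11. It was 0.986 for *Meg3* and *Snhg11*, 0.945 for *Snhg11* and *Peg13* and 0.934 for *Meg3* and *Peg13*, which lie on 3 different chromosomes, and -0.310 for *Neat1* and *Rian*. The points share the library and its scaling, and SOR 1 and SOR 3 lie farthest apart for the first 3 pairs, so that these values are a description.

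**Figure D5:**
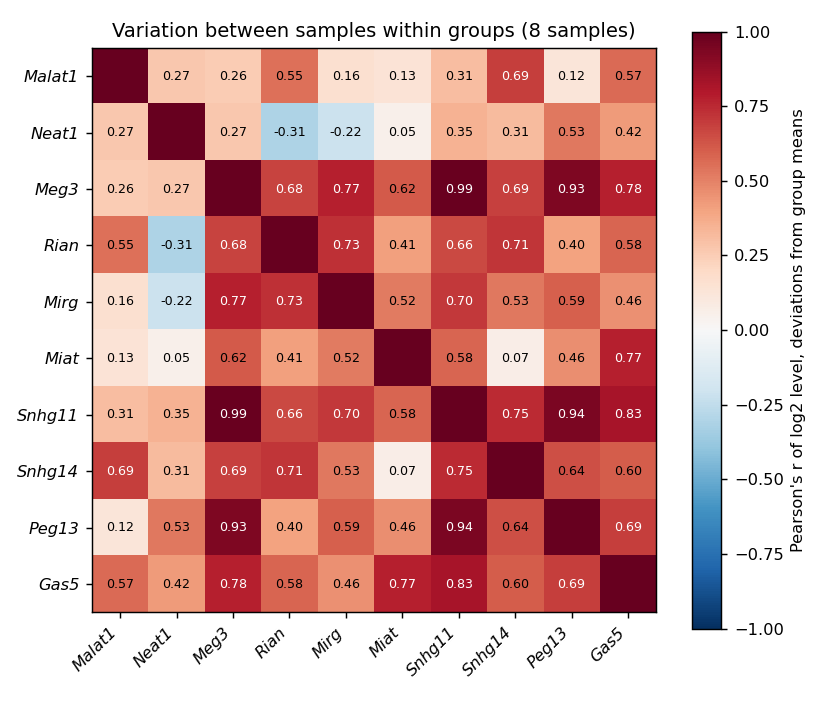
Pearson's r between lncRNAs of their log2 level in the 8 samples, taken as deviations from the 2 group means (red, positive; blue, negative). *Meg3*, *Snhg11* and *Peg13* form the group with r from 0.93 to 0.99, and the negative values are those of *Neat1* with *Rian* and with *Mirg*.

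Neighbouring lncRNAs were compared in 4 pairs over the 8 samples without removing the group means, and no correlation passed adjustment. For *Meg3* and *Rian*, Pearson's r was 0.675 (exact permutation p = 0.0674, adjusted over the 4 pairs 0.27) and Spearman's rho 0.69 (exact permutation p = 0.0694), with r = 0.86 when the 2 samples farthest from the median of *Meg3*, SOR 1 and SOR 3, were left out. Pearson's r was 0.466 for *Meg3* and *Mirg* (exact permutation p = 0.24, rho 0.214, exact permutation p = 0.619), and 0.254 without the same 2 samples. It was 0.469 for *Rian* and *Mirg* (exact permutation p = 0.239, rho 0.31, exact permutation p = 0.462), and 0.346 without SOR 3 and SOR 4, the farthest for *Rian*. *Malat1* and *Neat1*, whose genes are neighbours on chromosome 19, had r = -0.259 (exact permutation p = 0.56, rho -0.119, exact permutation p = 0.793), and -0.793 without SOR 2 and SOR 3, the farthest for *Malat1*. With the group means removed, r was 0.675 for *Meg3* and *Rian*, 0.774 for *Meg3* and *Mirg* and 0.73 for *Rian* and *Mirg*, and it turned to 0.267 for *Malat1* and *Neat1*.

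The genes given here as most like each lncRNA across the 8 samples, again as deviations from the group means and among about 16350 genes, had r of at least 0.957. They were *Eif5* and *Gnl3* for *Malat1*, *Slc7a14* and *Gm26910* for *Neat1*, *Gm37906* and *Acot4* for *Meg3*, *1700019D03Rik* and *Cmtm4* for *Rian*, and *Bcor* for *Mirg*. For the other lncRNAs they were *Arrdc1* for *Miat*, *Adra1a* and *Prkacb* for *Snhg11*, *Gm43319* and *Olfr552* for *Snhg14*, *Sez6* and *Smad9* for *Peg13*, and *Myc* and *Spred2* for *Gas5*. With 8 points and so many genes, high values of r arise for any gene, and no p is given.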

How the data were processed

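Total RNA of the dorsal hippocampus was sequenced with 1 library per mouse. The methods name a stranded kit with ribosomal RNA depletion, whereas the deposited labels name polyA RNA. The authors ran bcbio-nextgen with STAR on mm10. The deposited values are expected counts per gene summarized with tximport, not normalized, and 52.6% of them are not whole numbers. The quantifier behind tximport is not given in the sources used here, and the methods name featureCounts. The spatial and single-nucleus samples were not analysed here.

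Counts were rounded, filtered with filterByExpr and scaled with upper-quartile factors. The test between groups was edgeR's quasi-likelihood test (edgeR 4.0.16, R 4.3.3), two-sided, with Benjamini-Hochberg adjustment over 22018 genes. RUVs, which the study used with a number of factors that its text does not give, served as an alternative. It was run with edgeR's likelihood ratio test in place of the quasi-likelihood test. CPM values are on the scaled library sizes. For single lncRNAs, log2 CPM was permuted exactly (two-sided) over the 70 assignments of 4 against 4. The alternatives were other scalings, filters and tools (DESeq2 1.42.0, limma-voom of limma 3.58.1), the replicate number as a block and each sample left out. Leaving out SOR 1 and SOR 3 together, and the comparison of spread, were chosen after seeing the data. The fit was tested on simulated data.

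Gene spans and exons came from GENCODE M21 (GRCm38), which lacked a record for 37 of the 54532 genes, and sequences from RefSeq (GRCm38.p6). The members and lists were chosen with earlier results of these data known. The rule for named genes takes all 10 lncRNAs, the highest and lowest estimate of each list, genes past the adjusted p in a list or within 100 kb, and the 2 genes most like each lncRNA at a mean of at least 1 CPM. Some genes that the rule takes are not reported here. Other tested genes of the *Dlk1-Dio3* domain, and single genes set beside a lncRNA they overlap or neighbour, were named after their values were seen. *Sox2ot* was also named outside the rule, for its unadjusted p, and not all such genes of other lists were named. Replicate numbers did not pair the samples (correlation of deviations -0.099 to 0.151). The chi-square per degree of freedom between replicates was 11.9 to 53.9, so that replicates differed by more than sampling noise. Separate mice are the replicates according to the methods.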

Additional observations from a re-analysis of the deposited data

Results flagged for a closer look

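A gap test (Dixon's, at the 95% level) over 34 groups of 4 samples, for the 10 lncRNAs and the other genes tested between *Dlk1* and *Dio3*, marked 2 groups, where chance marks about 1 in 20. *Miat* stood at 227.3 CPM in SOR 3, with the nearest other SOR sample at 198.5 and the farthest at 194.7 CPM. *Gm37899* stood at 18.24 CPM in homecage 1, with the nearest other homecage sample at 16.48 and the farthest at 16.17 CPM. SOR 3 was also the highest of the 8 samples for *Meg3*, *Rian*, *Mirg*, *Snhg11* and *Peg13*.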

How the results depend on the processing

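The call of no lncRNA past the adjusted p became 1, *Mirg*, with DESeq2 and with 1, 2 or 3 RUVs factors. The RUVs fits used the likelihood ratio test, so that they differ from the reported fit in both the test and the factors. With the likelihood ratio test and no factors, no lncRNA passed. The count over all genes, 68, became 214 with the likelihood ratio test, 442 with DESeq2, 304, 497 and 501 with 1, 2 and 3 RUVs factors, 37 without SOR 1 and SOR 3, and 30 to 55 when 1 sample was left out (39, 30, 41 and 30 without homecage 1, 2, 3 and 4, and 55, 36, 44 and 43 without SOR 1, 2, 3 and 4). The cause was not tested. With the replicate number as a block (replicate block) the count was 40, and no lncRNA passed. Of 230 log2 fold changes of the lncRNAs under all alternatives, 22 changed sign and 4 changed the call. *Peg13* turned to 0.0071 with TMM, 0.0084 with RLE and with DESeq2, and 0.0078 and 0.006 with 2 and 3 RUVs factors. Without SOR 1 and SOR 3, *Meg3* was at -0.0327, *Rian* at -0.0467, *Miat* at -0.0407 and *Peg13* at 0.0051. When 1 sample was left out, the log2 fold change of *Meg3* ranged from -0.1086 to 0.1205, of *Rian* from -0.025 to 0.0416, of *Miat* from -0.0354 to 0.042, of *Snhg11* from -0.1269 to 0.036, of *Snhg14* from -0.0207 to 0.0654 and of *Peg13* from -0.0755 to 0.0595. The signs of *Malat1*, *Neat1*, *Mirg* and *Gas5* were kept under each alternative run, although *Neat1* ranged from -0.2767 to -0.0865 when 1 sample was left out (-0.0865 without SOR 1) and was at -0.0326 without SOR 1 and SOR 3. Of the 16 highest and lowest estimates of the context lists, 9 moved by over 1.5 times when 1 sample was left out and none changed sign. *Magel2* ranged from -0.9831 to -0.1452, *Sf1* from 0.0176 to 0.1701, *Celf3* from -0.2312 to -0.0953 and *Kcnq1ot1* from 0.0492 to 0.1889. Library size scaling moved the median of all genes by 0.0071. With 4 mice a group, the 95% intervals of the 10 lncRNAs reach from a fold of 0.745 (*Neat1*) to 1.42 (*Mirg*). These ends depend on the estimates (folds of 0.879 and 1.25) as well as on the spread between mice. The widest single interval, that of *Meg3*, ran from 0.854 to 1.22.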

Other observations

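Genes named beside the lncRNAs passed the adjusted p of 0.05 under some of the 14 alternatives although not in the reported fit. *Ago2*, which encodes a microRNA-loading protein and is on the *Peg13-Kcnk9* list, did so in 2 of 14, as did *Sfpq*, of the paraspeckle list. Their log2 fold changes over the alternatives ranged from 0.22 to 0.25 and from 0.16 to 0.19. For every 100 counts of *Rian* there were 5.71 ± 0.39 counts of *Mirg* in homecage and 7.07 ± 0.37 in SOR (SD, n = 4 each), and the 2 groups did not overlap. For every 100 counts of *Meg3* there were 39.1 ± 1.5 counts of *Rian* in homecage and 39.4 ± 6.4 in SOR, with SOR 1 at 47.8 and SOR 3 at 32.3.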
